A study of Caenorhabditis elegans with 9 samples.

Results

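The genes described here are 45 neuropeptide precursor genes of Caenorhabditis elegans, 27 of the flp family and 18 of the nlp family, chosen by name from the genes of these families known from neurons (flp-1 to flp-22, flp-24 to flp-27, flp-32 and a set of nlp genes). All 45 were found among the 43901 loci of the expression table. A locus entered the tests when its coverage averaged at least 1 over the 9 libraries, which 19567 loci and 44 of the 45 genes did. The exception was nlp-22.

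The 9 libraries were made from poly(A) RNA of whole young adults, from liquid cultures of about 40000 worms started as synchronized larvae and grown for 53 h at 20 °C with RNAi feeding bacteria. A pair of libraries came from emr-1(RNAi) lem-2(tm1582) animals, called double below by their label, which carry the lem-2(tm1582) deletion (strain BN19) and ate bacteria that make emr-1 double-stranded RNA. The others were 2 libraries of emr-1(gk119), the emr-1 mutant (strain BN20), which carries a deletion in the emerin gene, 2 of lem-2(tm1582), the lem-2 mutant (BN19), and 3 of the wild type N2 (WT). As negative control the methods name bacteria that make double-stranded RNA of an unrelated sequence from the empty plasmid. The methods do not spell out which groups ate these control bacteria. Cultures also held ampicillin and the inducer IPTG. EMR-1 and LEM-2 are proteins of the inner nuclear membrane, and the study used RNAi for the double depletion because animals without both proteins die as embryos, so the double libraries combine a deletion with a knockdown. Nothing in the labels says that replicates came from separate cultures, so p-values measure only the spread between these libraries, which may be technical. Which libraries shared a sequencing lane is not given, and lane and genotype cannot be told apart.

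Neuropeptides are cut from larger precursor proteins. FMRFamide-like peptides come from flp genes, and nlp genes encode the neuropeptide-like precursors of other sequence families. The precursors are loaded into dense-core vesicles, cut by the proprotein convertase EGL-3 with its chaperone SBT-1, trimmed by the carboxypeptidase EGL-21 and amidated at their ends, and the vesicles are released with the help of UNC-31. Most of the peptides act on G protein-coupled receptors, and in the worm they set locomotion, egg laying, feeding, sleep and fat storage.

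The labels were checked on the targeted genes, in units of base coverage. emr-1 coverage was 135 and 73.5 in the double libraries, 0 and 1.5 in the emr-1 mutant, 44.5 and 44.4 in the lem-2 mutant, and 52.1, 44.6 and 60.5 in WT. It matched the deletion in emr-1(gk119) but was not lower in the libraries labelled double, in which the double-stranded RNA of the bacteria has the sequence of emr-1. lem-2 coverage was 28.9 and 30.5 in the double libraries, 16.1 and 23.8 in the emr-1 mutant, 54 and 53.3 in the lem-2 mutant, and 32.2, 29.3 and 39 in WT, and so was not lower in the libraries that carry tm1582. The coverage of a whole transcript does not show which exons the deletion took. The directions given for the double and lem-2(tm1582) groups rest on their labels and on the methods, by which part of the cultures was kept longer and the double depletion then showed embryonic lethality. The labels give strain BN19 for the double libraries, whereas a passage of the methods lists BN24 for a pair of libraries, and the labels were followed.

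All values are base coverage, which is a level per base and can therefore be compared between genes as well as between libraries. In WT the 45 genes spanned a wide range. The highest mean belonged to flp-24 (C24A1.1), a peptide gene of the ALA neuron that takes part in stress-induced sleep, with 73.1, 78 and 111 in the 3 WT libraries. That rank depends on averaging the transcripts of a gene: flp-12 has 2, and the expressed one alone stood at 85.6, 99.1 and 106 in WT, above the mean of flp-24. nlp-17 followed with 64.9, 69.9 and 88.0, and flp-14 with 52.5, 46.9 and 109. The lowest tested gene was nlp-14, an orcokinin-like precursor, at 2.69, 6.63 and 3.42. This rank also depends on averaging its 2 transcripts. The higher one alone stood at 3.39, 8.50 and 4.22 in WT, where the mean of nlp-5, with 1 transcript, was 4.43. The order of neighbouring genes was loose, since each of the 44 genes above 0 in WT overlapped in its WT range with the gene ranked next below it, apart from nlp-14 against nlp-22. Coverage of nlp-22, which promotes quiescence during larval moults, was 1 in both double and both emr-1(gk119) libraries and was listed at 0 in both lem-2(tm1582) and all 3 WT libraries. In the double libraries the mean coverage of the 44 tested genes had a median of 42.7, against 17.7 in WT, and flp-24 was again the highest when transcripts were averaged, while the expressed transcript of flp-12 stood at 495 and 353 in the double libraries.

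The largest group of changes was in the double libraries. Of the 44 tested genes 33 rose against WT and none fell (limma, Benjamini-Hochberg adjusted p under 0.05). Over all loci 26.4% were called higher and 12% lower in this comparison. The median log2 change of the 44 genes was 1.26, against 0.35 over all loci tested, and each of the 44 changes lay above 0, as did 66.2% of all changes. When quantile normalization was repeated on the loci, 16.8% of all loci were called higher and 18.5% lower, with a median of -0.03, and 29 of the 44 genes rose and none fell. The changes of flp-21, flp-25 and flp-32 were then below 0, at -0.21, -0.05 and -0.01. Both double libraries lay above all 3 WT libraries for 40 of the 44 genes, the exceptions being flp-3, flp-21, flp-25 and flp-27, while 41.8% of all loci showed that separation. For 37 genes both double libraries lay above all 7 other libraries, compared with 22.7% of all loci. Mean coverage was at least 2 times that of WT for 32 genes and at least 3 times for 13.

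**Figure D1:**
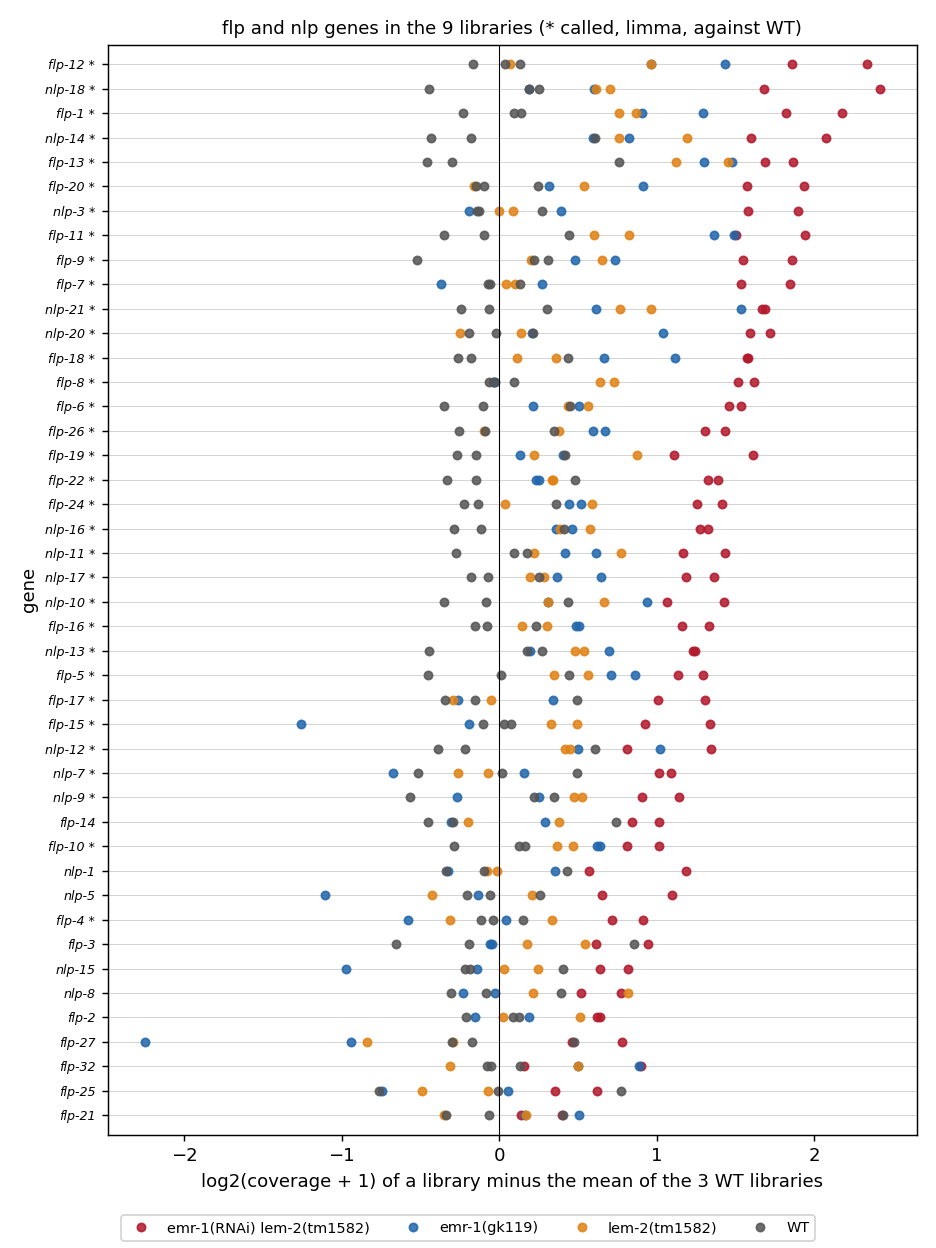
Each row is 1 of the 44 tested flp and nlp genes, and each point is 1 library, placed by its log2(coverage + 1) minus the mean of the 3 WT libraries. The double libraries lie to the right of all 7 other libraries for 37 genes, while emr-1(gk119) and lem-2(tm1582) points often overlap those of WT. An asterisk marks the 33 genes called in the double libraries against WT.

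flp-1 (F23B2.5) encodes peptides of the AVK interneurons that shape locomotion. Its coverage was 232 and 181 in the double libraries, 125 and 95.2 in the emr-1 mutant, 85.9 and 92.8 in the lem-2 mutant, and 42.8, 55.5 and 53.9 in WT, so no mutant library overlapped with WT and no single mutant reached the double libraries. The change was 2.00 on the log2 scale in the double libraries (SE 0.19, adjusted p = 0.000899). flp-12 (C05E11.8) had the largest log2 change of the 44 genes, 2.10 (SE 0.30, adjusted p = 0.00235). It stood at 248 and 178 in the double libraries, 132 and 95.2 in the emr-1 mutant, 95.2 and 50.6 in the lem-2 mutant, and 42.8, 49.6 and 53.0 in WT. These are means of 2 annotated transcripts of flp-12, 1 of which had coverage of at most 2 in every library. nlp-18 (F33A8.2) changed by 2.05 (SE 0.30, adjusted p = 0.00277), with 73.3 and 43.7 in the double libraries, 20.1 and 14.8 in the emr-1 mutant, 20.3 and 21.6 in the lem-2 mutant, and 9.22, 15.6 and 14.9 in WT. The 2 double libraries of nlp-18 lay well apart but did not meet any other library.

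A number of genes were high in the double libraries while neither single mutant was called. nlp-3 (F48C11.3), a gene of the HSN motor neurons that promotes egg laying, had 85.8 and 68.8 in the double libraries, 29.6 and 19.4 in the emr-1 mutant, 23.7 and 22.2 in the lem-2 mutant, and 20.3, 27.1 and 20.1 in WT. flp-7 (F49E10.3), whose peptides signal to fat through the receptor NPR-22, had 38.97 and 31.2 in the double libraries, 12.4 and 7.58 in the emr-1 mutant, 10.4 and 10.9 in the lem-2 mutant, and 9.67, 9.56 and 11.2 in WT. Both single mutants overlapped with WT for these 2 genes. The log2 change in the double libraries was 1.74 for nlp-3 (SE 0.23, adjusted p = 0.00201) and 1.69 for flp-7 (SE 0.23, adjusted p = 0.00223). flp-8 (F31F6.4), expressed in the oxygen-sensing URX neurons, had the lowest p-value of the genes, with a log2 change of 1.57 (SE 0.12, adjusted p = 0.000586). Its coverage was 161 and 150 in the double libraries, 50.4 and 50.7 in the emr-1 mutant, 86.4 and 81.2 in the lem-2 mutant, and 50.6, 55.3 and 49.5 in WT. The lem-2(tm1582) libraries of flp-8 were above WT without overlap, but the change of 0.68 was not called (adjusted p = 0.105).

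**Figure D2:**
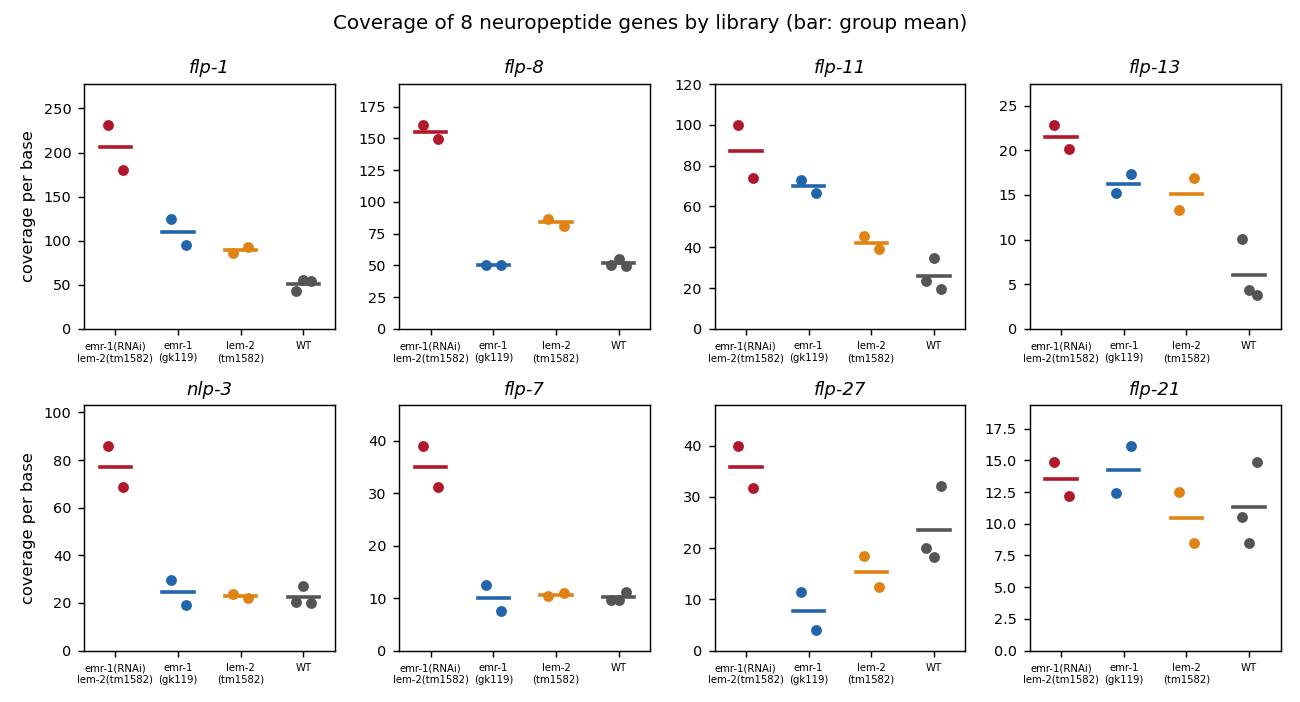
Coverage per base of 8 genes in each library, with a bar at the mean of each group. flp-1 and flp-11 are above WT in all 3 mutant groups, nlp-3 and flp-7 only in the double libraries, flp-8 in the double and lem-2(tm1582) libraries, flp-27 is lowest in emr-1(gk119), and the groups of flp-21 overlap.

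flp-11, flp-13 and flp-24, which act in sleep or quiescence, rose in the double libraries, while nlp-8 did not pass the test and nlp-22 was too low to be tested. flp-11 (K02G10.4), the main peptide gene of the sleep-active RIS neuron, had 100.2 and 73.7 in the double libraries, 73.0 and 66.7 in the emr-1 mutant, 45.6 and 39 in the lem-2 mutant, and 23.6, 34.9 and 19.6 in WT. Every mutant library exceeded every WT library, and the emr-1(gk119) libraries lay just below the lower of the double libraries. flp-13 (F33D4.3), which the ALA neuron uses in stress-induced sleep, had 22.9 and 20.1 in the double libraries, 15.2 and 17.3 in the emr-1 mutant, 13.3 and 16.9 in the lem-2 mutant, and 10.1, 4.33 and 3.78 in WT. Again the mutants did not overlap with WT. The changes in the double libraries were 1.72 for flp-11 (SE 0.26, adjusted p = 0.00275) and 1.77 for flp-13 (SE 0.36, adjusted p = 0.00842). flp-24 stood at 230.3 and 206 in the double libraries, 117 and 124 in the emr-1 mutant, 130 and 88.0 in the lem-2 mutant, and 73.1, 78 and 111 in WT, a log2 change of 1.33 in the double libraries (adjusted p = 0.00444). nlp-8, another ALA gene, had 39.8 and 33.2 in the double libraries against 18.3, 30.2 and 21.5 in WT. Its change was not called (adjusted p = 0.0936), and 1 of the lem-2(tm1582) libraries, at 41.04, lay above both double libraries.

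flp-17, flp-10, flp-20 and flp-6, genes of sensory neurons or of the control of egg laying, rose in the double libraries by 0.91 to 1.75 on the log2 scale. flp-17 (C52D10.11), made by the carbon dioxide-sensing BAG neurons and an inhibitor of egg laying through the receptor EGL-6, had 42.2 and 34.1 in the double libraries, 21.1 and 13.6 in the emr-1 mutant, 15.8 and 13.2 in the lem-2 mutant, and 12.8, 14.7 and 23.6 in WT, with a log2 change of 1.16 in the double libraries (SE 0.30, adjusted p = 0.0210). That call was lost without either double library and without WT replicate 1 or 2, where the change ran from 0.98 to 1.31. flp-10, another ligand of EGL-6, had 76.5 and 88.1 in the double libraries, 67.9 and 67.0 in the emr-1 mutant, 60.3 and 56.1 in the lem-2 mutant, and 48.4, 35.3 and 47.2 in WT. All 3 mutant groups of flp-10 were above WT, in the same order as for flp-1. flp-20, a gene of the touch receptor neurons, had 128 and 99.1 in the double libraries, 62.5 and 40.9 in the emr-1 mutant, 47.8 and 29.2 in the lem-2 mutant, and 30.4, 29.3 and 39 in WT. flp-6, expressed in the thermosensory AFD neurons, had 90.0 and 85.4 in the double libraries, 35.4 and 43.6 in the emr-1 mutant, 45.4 and 41.4 in the lem-2 mutant, and 23.6, 41.9 and 28.3 in WT. flp-20 and flp-6 changed in the double libraries by 1.75 and 1.5 (adjusted p = 0.00351 and 0.00357).

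Of the peptide genes that act through the receptor NPR-1, 1 rose in the double libraries and 1 did not pass the test. flp-18 (Y48D7A.2), whose peptides also activate NPR-4 and NPR-5, had 45.9 and 45.7 in the double libraries, 32.9 and 23.8 in the emr-1 mutant, 19.1 and 15.9 in the lem-2 mutant, and 12.8, 20.2 and 12.1 in WT. Its log2 change was 1.58 in the double libraries (SE 0.26, adjusted p = 0.00374), and the emr-1(gk119) libraries were above WT without being called (0.89, adjusted p = 0.0546). flp-21 had 14.8 and 12.2 in the double libraries, 12.4 and 16.1 in the emr-1 mutant, 12.5 and 8.44 in the lem-2 mutant, and 10.5, 8.50 and 14.9 in WT. The groups of flp-21 overlapped throughout, and its change of 0.27 in the double libraries (SE 0.29, adjusted p = 0.490) was the smallest of the 44. The receptor gene npr-1 itself was near the floor, with 1.00 and 2.00 in the double libraries against 1.00, 1.00 and 2.00 in WT.

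nlp-12 (M01D7.5) encodes cholecystokinin-like peptides of the DVA neuron that act at the neuromuscular junction, and it lies next to emr-1, downstream of it on the same strand of chromosome I. Its coverage was 26.8 and 18.2 in the double libraries, 14.4 and 21.2 in the emr-1 mutant, 13.6 and 13.9 in the lem-2 mutant, and 7.33, 15.7 and 8.39 in WT. The double libraries were called against WT (log2 change 1.08, SE 0.34, adjusted p = 0.0420), but the call held in only 1 of the 9 fits that each left out 1 library. nlp-9 was called at 1.03 (SE 0.32, adjusted p = 0.0371), with 19.7 and 16.5 in the double libraries, 10.1 and 6.75 in the emr-1 mutant, 11.97 and 12.5 in the lem-2 mutant, and 5.31, 9.88 and 10.9 in WT. That call held in 3 of the 9. nlp-1, a peptide gene of the AWC olfactory neurons that acts on NPR-11, had 22.9 and 14.6 in the double libraries, 12.4 and 7.39 in the emr-1 mutant, 8.94 and 9.39 in the lem-2 mutant, and 7.33, 13.2 and 8.83 in WT. The double libraries of nlp-1 exceeded WT, but the change of 0.88 was not called (adjusted p = 0.0699).

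The remaining genes given by library were high ones with a narrow spread or genes with no single well-known role. flp-16 had 83.4 and 94.2 in the double libraries, 52.8 and 51.9 in the emr-1 mutant, 40.8 and 45.8 in the lem-2 mutant, and 34.8, 43.5 and 33 in WT. nlp-17 had 192 and 169 in the double libraries, 95.4 and 116 in the emr-1 mutant, 84.6 and 90.1 in the lem-2 mutant, and the WT values above. flp-22 had 142 and 136 in the double libraries, 63.3 and 64.2 in the emr-1 mutant, 68.2 and 68.0 in the lem-2 mutant, and 42.6, 48.3 and 75.3 in WT. In these 3 genes the double libraries stood clear of all others, with log2 changes of 1.25, 1.28 and 1.36. flp-9 had 106 and 84.8 in the double libraries, 47.8 and 39.9 in the emr-1 mutant, 45.1 and 32.8 in the lem-2 mutant, and 19.4, 35.3 and 33.1 in WT. nlp-20 had 75.2 and 82.1 in the double libraries, 50.9 and 28.1 in the emr-1 mutant, 26.7 and 20.2 in the lem-2 mutant, and 21.1, 23.8 and 28.3 in WT. flp-26 had 50.7 and 46.4 in the double libraries, 27.97 and 29.4 in the emr-1 mutant, 16.9 and 23.9 in the lem-2 mutant, and 16.9, 23.4 and 15.0 in WT. All 3 were called in the double libraries, with changes of 1.70 for flp-9, 1.66 for nlp-20 and 1.37 for flp-26. flp-14 had 131 and 117 in the double libraries against 52.5, 46.9 and 109 in WT, and its change of 0.93 was not called (adjusted p = 0.0928).

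The 33 genes called were spread over both families and all chromosomes. They were 20 of the 27 flp genes (median log2 change 1.33) and 13 of the 17 tested nlp genes (median 1.24). Of the 45 genes 17 (37.8%) lie on the X chromosome, which holds 13.7% of annotated protein-coding loci. The count called was 12 of 16 tested genes on X and 21 of 28 on the autosomes, with medians of 1.47 and 1.24, while all loci on X had a median of 0.46. The 11 genes not called were flp-2, flp-3, flp-14, flp-21, flp-25, flp-27, flp-32, nlp-1, nlp-5, nlp-8 and nlp-15, with changes between 0.27 and 0.93. Of the 45 genes 7 share exon bases with another annotated gene, at most 6.91% of their length, for nlp-17. Of the 33 calls 21 held in each of the 9 fits that left out 1 library and under all 10 other settings. Without double replicate 1, which lay above replicate 2 for 37 of the 44 genes, 21 genes were called in place of 33.

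**Figure D3:**
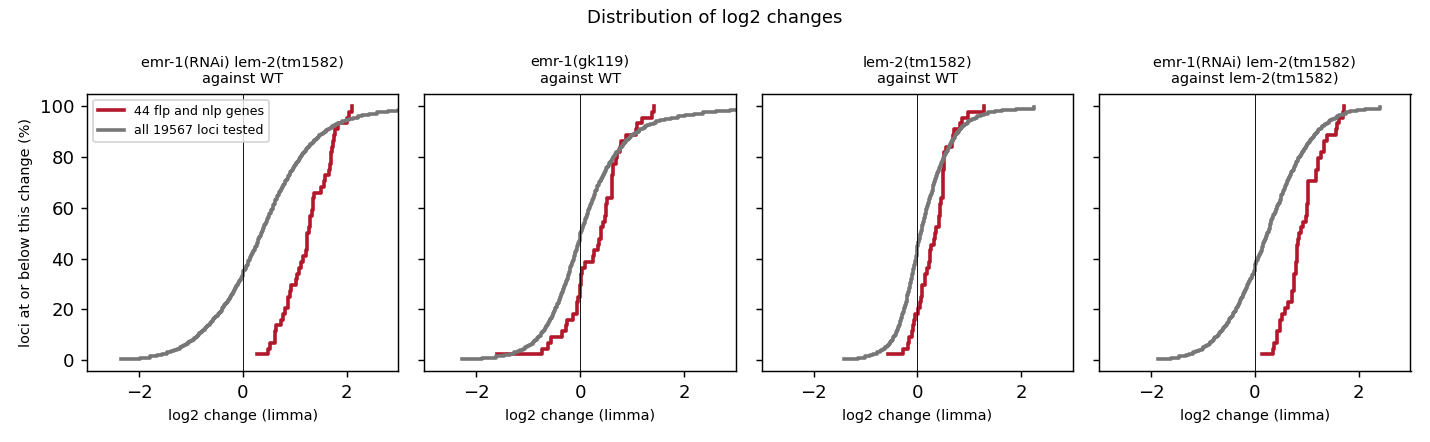
The curves give the percentage of loci at or below each log2 change, for the 44 tested flp and nlp genes and for all 19567 loci, in 4 comparisons. The peptide gene curve starts above 0 in both comparisons of the double libraries, where its medians are 1.26 and 0.87 against 0.35 and 0.25 for all loci, and crosses 0 in the single mutants.

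In emr-1(gk119) 6 of the 44 genes rose against WT and 1 fell, beside 10.3% of all loci called higher and 6.27% called lower. The median change was 0.40, against 0.01 over all loci. The genes that rose were flp-1, flp-11, flp-12, flp-13, flp-10 and nlp-21, and each of the 6 was also called higher in the double libraries, a comparison that uses the same WT libraries. The log2 change was 1.43 for flp-11 (SE 0.26, adjusted p = 0.0122) and 1.10 for flp-1 (SE 0.19, adjusted p = 0.0115). It was 1.39 for flp-13, 1.20 for flp-12, 1.08 for nlp-21 and 0.63 for flp-10 (adjusted p between 0.0337 and 0.0459). nlp-21, flp-10 and flp-27 are given by library because they were called, and were chosen after their values were seen, as were nlp-8 and nlp-14. nlp-21 had 39.3 and 39.9 in the double libraries, 35.8 and 18.4 in the emr-1 mutant, 23.7 and 20.6 in the lem-2 mutant, and 11.1, 14.7 and 9.72 in WT. flp-27 (C25H3.5) fell by 1.60 on the log2 scale in emr-1(gk119) (SE 0.42, adjusted p = 0.0418), with 39.9 and 31.8 in the double libraries, 11.4 and 4.00 in the emr-1 mutant, 18.4 and 12.3 in the lem-2 mutant, and 20.1, 18.3 and 32.1 in WT. Of the 44 genes 16 had both emr-1(gk119) libraries above all WT libraries, compared with 22.1% of all loci, and 2, flp-15 and flp-27, had both below, compared with 19.5%. None of the 7 calls held in each fit that left out 1 library. The count ran from 2 to 4 in those fits and was 0 when only emr-1(gk119) and WT were fitted.

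In lem-2(tm1582) none of the 44 genes was called against WT. Unadjusted, 7 had p under 0.05 by limma, as did 15.7% of all loci, and 0.0460% of all loci were called. The median change was 0.35, against 0.06 over all loci, and 12 genes had both libraries above all WT libraries, compared with 20.8% of all loci. flp-13 had the largest change at 1.28 (SE 0.36, adjusted p = 0.160), followed by nlp-14 at 0.98 (adjusted p = 0.238), nlp-21 at 0.86 and flp-1 at 0.81. No gene had both lem-2(tm1582) libraries below WT, compared with 12% of all loci. WT replicate 1 was the lowest of the 3 WT libraries for 28 of the 44 genes, and without it the medians of both single mutants were smaller, at 0.24 for emr-1(gk119) and 0.18 for lem-2(tm1582).

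By the labels the double group shares the deletion of lem-2(tm1582), but lem-2 coverage was 28.9 and 30.5 in the double libraries and 54 and 53.3 in lem-2(tm1582). Set against lem-2(tm1582), the double group had 18 genes called higher and none lower, where 10.2% of all loci were called higher and 6.27% lower. The median change was 0.87, against 0.25 over all loci. Both double libraries exceeded both lem-2(tm1582) libraries in 41 of the 44 genes, the exceptions being flp-21, flp-32 and nlp-8, compared with 41.9% of all loci. nlp-20, nlp-3 and flp-7 changed most, by 1.71, 1.70 and 1.62 (adjusted p = 0.0145, 0.0111 and 0.0122). The 18 were 14 flp and 4 nlp genes. None of the 18 calls held in every fit that left out 1 library. Without double replicate 1 or without lem-2(tm1582) replicate 2 no gene was called, without lem-2(tm1582) replicate 1 there were 3, and without double replicate 2 there were 4.

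Whether the double group differed from the sum of its parts was asked with an interaction term, which takes the emr-1(gk119) change from WT away from the double change from lem-2(tm1582) and so sets RNAi beside a deletion. No gene was called by limma, 11 had unadjusted p under 0.05, as did 19.0% of all loci, and 0.445% of all loci were called. The median over the 44 genes was 0.54, against 0.10 over all loci. The lowest adjusted p belonged to flp-8 (0.92, SE 0.18, adjusted p = 0.0785), flp-7 (1.67, adjusted p = 0.0853), nlp-3 (1.60, adjusted p = 0.0888) and flp-27 (2.78, adjusted p = 0.0964). flp-13 and flp-11, which were already high in emr-1(gk119), had terms of -0.90 and -0.42, neither of which passed the test.

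Of 21 genes for peptide processing and dense-core vesicles 8 rose and 1 fell in the double libraries against WT, beside 26.4% of all loci called higher and 12% lower, and the median log2 change was 0.50. With quantile normalization repeated on loci 4 rose and 2 fell, and the median was -0.02. sbt-1 had coverage of 255 and 224 in the double libraries, 150 and 158 in the emr-1 mutant, 148 and 133 in the lem-2 mutant, and 96.4, 126 and 98.4 in WT (log2 change 1.16, SE 0.16, adjusted p = 0.00206). pamn-1, which encodes an amidating enzyme, had 45.9 and 45.7 in the double libraries, 22.6 and 19.3 in the emr-1 mutant, 25.6 and 22.2 in the lem-2 mutant, and 19.2, 23.4 and 19.9 in WT (log2 change 1.10, adjusted p = 0.00278). egl-3 rose by 0.91 (adjusted p = 0.0437) and unc-31 by 0.63 (adjusted p = 0.0421), and neither was called after the repeated normalization (0.72 and 0.05, adjusted p = 0.0822 and 0.890). egl-21 had 111 and 103 in the double libraries against 47.8, 70.2 and 57.7 in WT and was not called (0.87, adjusted p = 0.0590), and neither was ida-1, a vesicle membrane protein (0.75, adjusted p = 0.0817). eipr-1, which acts in vesicle sorting, fell by 1.11 (adjusted p = 0.00639). In the single mutants 1 gene of this list, bli-4, was called, in emr-1(gk119).

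Of 31 tested genes for peptide receptors 8 rose and none fell in the double libraries, a share near that of all loci, with a median of 0.53. With the repeated normalization 2 rose and 2 fell, with a median of 0.04. trhr-1, the thyrotropin-releasing hormone receptor homologue, had 29.5 and 24.2 in the double libraries, 20.6 and 10.3 in the emr-1 mutant, 10.9 and 8.11 in the lem-2 mutant, and 6.83, 8.50 and 3.00 in WT (log2 change 2.06, adjusted p = 0.00892). dmsr-1, a receptor for the sleep peptides of flp-13, had 41.3 and 38.9 in the double libraries, 19.1 and 9.33 in the emr-1 mutant, 16.7 and 13.9 in the lem-2 mutant, and 10.2, 14.5 and 6.83 in WT (log2 change 1.89, adjusted p = 0.00659). Most of the other receptors had coverage too low for a fold change to be read closely. Of 10 peptide-degrading enzymes 4 rose and 1 fell in the double libraries, where 26.4% of all loci were called higher and 12% lower. With the repeated normalization 3 rose and 1 fell there, with a median of 0.08. In emr-1(gk119) 4 of the enzymes rose, beside 10.3% of all loci called higher. nep-1, a neprilysin, stood at 139 and 96.1 in the double libraries, 129 and 158 in the emr-1 mutant, 51.3 and 52.9 in the lem-2 mutant, and 25.7, 33.4 and 23.6 in WT, so that for this enzyme emr-1(gk119) was as high as the double libraries.

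Of 17 tested genes for peptide precursors outside the 45, 10 rose and none fell in the double libraries, beside 26.4% of all loci called higher and 12% lower. The median was 1.08, and the changes ran from -0.03 to 2.06, so some of these genes did not move. With the repeated normalization 8 rose and none fell, with a median of 0.76, where 16.8% of all loci were called higher. In emr-1(gk119) nlp-47 fell, beside 6.27% of all loci called lower. pdf-1, which encodes pigment-dispersing factor, a regulator of locomotion, had 201 and 148 in the double libraries, 112 and 70.3 in the emr-1 mutant, 89.6 and 65.1 in the lem-2 mutant, and 35, 66.3 and 55.7 in WT (log2 change 1.75, adjusted p = 0.00604). nlp-35 changed by 2.06, nlp-41 by 1.46 and nlp-19 by 1.35 in the double libraries (adjusted p between 0.00350 and 0.00850).

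The cell types behind the RNA were described with lists of marker genes. In whole animals, fewer cells of a type and less RNA per cell cannot be told apart. Summed coverage of the 45 genes was 2649 to 3060 in the double libraries, 1409 to 1578 in the emr-1 mutant, 1277 to 1491 in the lem-2 mutant, and 919 to 1221 in WT. Summed coverage of 14 pan-neuronal markers was 460 to 473 in the double libraries, 348 to 353 in the emr-1 mutant, 398 to 412 in the lem-2 mutant, and 404 to 436 in WT. The ratio of the group means, double over WT, was 2.63 for the 45 genes and 1.12 for these markers. The marker sum is led by the synaptobrevin gene snb-1, and the other 13 markers were summed apart after the values were seen. They stood at 310 and 287 in the double libraries and 143, 186 and 162 in WT, a ratio of 1.82. In the emr-1 mutant they stood at 175 and 137, and in the lem-2 mutant at 169 and 151. Of these 13, ric-4 was the highest in the double libraries, at 131.5 and 87.2 against 19.3, 43.4 and 27.85 in WT. Others were lower, such as unc-33, at 6.94 and 9.39 against 11.1, 13.2 and 14.4 in WT. snb-1 fell by 0.58 in the double libraries (adjusted p = 0.0298), while 5 of the 14 rose, among them snt-1, the synaptotagmin gene (1.30), and rgef-1 (1.20), and the median over the 14 was 0.36, close to the 0.35 of all loci. With the repeated normalization 3 rose, ric-4 among them, and 2 fell, snb-1 and unc-33. The median was then -0.02 and rgef-1 was not called (0.66, adjusted p = 0.0966). Of 16 tested markers of neuron classes 6 rose and 2 fell in the double libraries, beside 26.4% of all loci called higher and 12% lower. Their median was 0.45 (0.04 with the repeated normalization, where 2 rose and 2 fell). mec-17, of the touch receptor neurons, rose by 1.67, and tdc-1 and tbh-1, the enzymes that make tyramine and octopamine and are also expressed in the somatic gonad, fell by 1.88 and 1.62. The other 15 markers of neuron classes were also summed apart after the values were seen. They stood at 158 and 130 in the double libraries and 58.6, 76.2 and 54.9 in WT, a ratio of 2.27. In the emr-1 mutant they stood at 61.1 and 53.6, and in the lem-2 mutant at 76.3 and 62.5. mec-17 led this sum, at 74.4 and 52.9 in the double libraries against 18.5, 22.1 and 16.9 in WT. mec-7 had 23.4 and 20.1 against 7.33, 13.7 and 6.33, and unc-25 had 29.4 and 28.6 against 15.0, 13.7 and 14.2. The remaining markers stood at low coverage, and several, such as mec-4, tax-4 and osm-6, were not higher in the double libraries. None of the markers in either neuronal list was at 0 in all libraries.

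**Figure D4:**
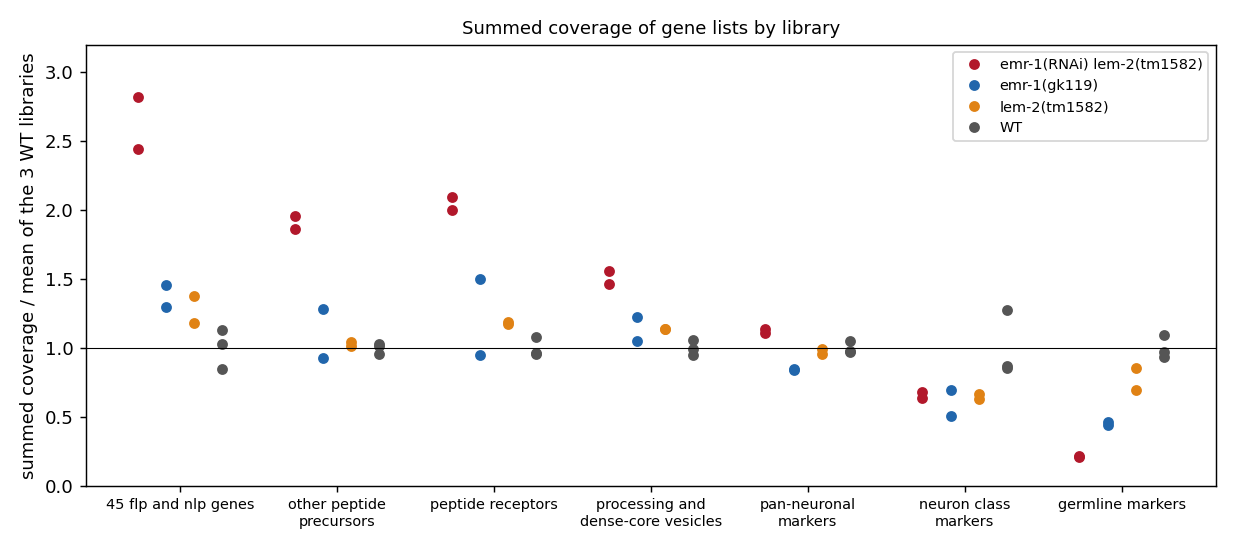
Each point is the summed coverage of a gene list in 1 library, divided by the mean of that sum in the 3 WT libraries. The double libraries are highest for the 45 flp and nlp genes, followed by receptors and other peptide precursors, lie just above WT for pan-neuronal markers and lowest for germline markers. The sum of other peptide precursors is led by nlp-36, and in the double libraries that of receptors is led by dmsr-1 and trhr-1. The double libraries lie below WT for neuron class markers, a sum led by tdc-1 and tbh-1. Without these 2 genes the ratio to WT is 2.27, and mec-17 then leads the sum.

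Markers of other tissues also differed between the groups, in either direction. Summed coverage of 15 germline markers was 815 to 845 in the double libraries, 1714 to 1810 in the emr-1 mutant, 2697 to 3322 in the lem-2 mutant, and 3648 to 4255 in WT. Of the 15 the double animals had 13 that fell and the emr-1 mutant 11, where 12% and 6.27% of all loci were called lower. Summed coverage of 11 muscle markers was 2409 to 2676 in the double libraries, 1646 to 2266 in the emr-1 mutant, 2505 to 2579 in the lem-2 mutant, and 1103 to 1581 in WT, and 7 of the 11 rose in the double libraries. Of 10 epidermis markers 5 rose and 3 fell in the double libraries, and of 10 intestine markers 2 rose and 3 fell. Of 10 sperm markers none was called there by limma, with 2 at an unadjusted p under 0.05. Over all loci 26.4% were called higher and 12% lower in this comparison. With the repeated normalization 15 germline and 2 sperm markers fell, and 5 muscle markers rose. Of epidermis markers 5 then rose and 3 fell, and of intestine markers 1 rose and 3 fell, beside 16.8% of all loci called higher and 18.5% lower. No marker of these lists was at 0 in all libraries. The part of the germline difference in the changes of the flp and nlp genes was not tested.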

How the data were processed

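The authors aligned 150 bp single-end reads to the WS231 genome with TopHat, sorted them with Samtools and read coverage with Rsamtools. The values they deposited are a signal, base coverage. Per exon the median base was taken, exons were quantile-normalized across the 9 libraries, and a transcript received the median of its exons. These are not read counts, the depth of the libraries is not given in the sources used here, and precision was judged from the spread between replicates. Strand was not kept by the library kit.

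Transcripts of a locus were averaged, and log2(coverage + 1) of 19567 loci with mean coverage of at least 1 was tested with limma 3.58.1 in R 4.3.3, with a mean-variance trend, all 9 libraries in 1 fit and two-sided tests. Fold changes are on this scale, which understates changes of low genes. The Benjamini-Hochberg adjustment ran over all loci in each comparison, with a call at 0.05. The authors used the SAM method of siggenes on linear coverage, which was not repeated. The fit was tested on simulated data.

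Names, chromosomes and exon overlaps came from Ensembl release 115 and RefSeq for WBcel235, another build than that of the files, so no coordinates are given. Groups came from the genotype labels. The peptide genes and the gene lists were chosen with earlier results of these data known. Values by library are given for at most 16 called genes with the lowest adjusted p, the 3 highest and the lowest in WT, and 9 genes of well-known role, and also for nlp-8, nlp-14, nlp-21, flp-10 and flp-27, chosen after their values were seen. Of the other lists, up to 6 called genes and egl-3, egl-21, sbt-1, pamn-1, unc-31, ida-1 and npr-1 could be named. Marker genes and nlp-36 that are named as leading a sum, or as going against it, were picked after their values were seen. Alternatives were pseudocounts of 0.1 and 5, no minimum or a minimum of 5, no trend, the median of transcripts, 1 value per transcript, quantile normalization repeated on loci, only the groups compared, the replicate number as a block, and each library left out in turn. With 1 value per transcript, the transcript with the lowest p stood for each of the 9 genes with several, a choice that favours a call.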

Additional observations from a re-analysis of the deposited data

How the results depend on the processing

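No change of a named gene that was called turned round under any alternative. The count of genes called in the double libraries against WT was 29 to 34 of 44 under the 10 alternatives other than leaving out a library, and 21 to 33 with 1 library left out. For emr-1(gk119) against WT the count of 7 was 3 with no coverage minimum (flp-1 and flp-11 of the 7, and nlp-22, which is tested only there), 0 with only the groups compared and 2 to 4 with 1 library left out. For the double libraries against lem-2(tm1582) the count of 18 was 9 with only the groups compared and 0 to 17 with 1 library left out. For the interaction term 1 gene was called with no coverage minimum (flp-8) and 1 with a minimum of 5 (flp-27), against 0. The fit with only the groups compared has fewer samples. The causes of the other moves were not tested. When quantile normalization was repeated on loci, the median over all loci in the double libraries against WT was -0.03 in place of 0.35, the median of the 44 genes was 1.02 in place of 1.26 and 29 were called. Against lem-2(tm1582) it was 0.67 in place of 0.87.

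Libraries with the same replicate number deviated with correlations between -0.13 and 0.06 over 8111 loci, so the numbers were not taken to pair the libraries. With the replicate number as a block, and WT replicate 3 left out because it has no partner, 29 genes were called in the double libraries against WT, 14 against lem-2(tm1582), and 0 in either single mutant and for the interaction term. With 2 or 3 libraries a group an exact permutation test of a single gene could not reach 0.05. Every call therefore rests on the spread as limma models it, drawing on other loci and, in the main fit, on all 4 groups. Coverage under about 5, as in npr-1, nlp-22 and several receptors, gives fold changes that depend on the pseudocount.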
